A study of Mus musculus with 12 samples.

Results

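Jak2, Stat2, Stat3, Socs1, Socs3, Irf1, Irf7, Irf8 and Irf9 are 9 genes of cytokine and interferon signalling: a Janus kinase, a pair of STAT transcription factors, a pair of suppressors of cytokine signalling and 4 interferon regulatory factors. They were chosen by symbol, as every non-control probe whose RefSeq transcript maps to a gene of this list, and have 13 probes among the 17009 genes that could be named on the array. All 9 had a probe well above background on all 12 arrays and entered the tests, which covered 21856 items (13649 named genes and 8207 identifiers without a name).

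RNA of whole lung tissue was measured on 12 Agilent 1-colour arrays, with 3 arrays in each of 4 groups. All mice were of 1 inbred strain (FVB/N in the protocol, FVB/NJ in the strain label), carried no engineered allele that the labels name, were labelled female and were 7 weeks old when dosing began. The PBS group received phosphate-buffered saline weekly for 16 weeks. The LPS group was given lipopolysaccharide, an endotoxin of bacteria, through the nose at 5 ug per mouse every week for 16 weeks. The NNK group was injected in the peritoneum with 3 mg per mouse of NNK, a nitrosamine carcinogen of tobacco, biweekly over the first 4 weeks, and no vehicle is named for it. The LPS/NNK group received both agents. Lungs were taken 1 week after a mouse's last dose, so the sources used here do not settle whether mice given NNK alone were of the same age at death, nor whether tumours were part of the tissue. The study is titled as work on endotoxin inflammation as a promoter of lung tumours started by NNK. The comparison of LPS/NNK with NNK bears most directly on that question. Nothing says that the 3 samples of a group came from separate litters or days, so the p-values measure the spread between these samples.

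Janus kinases sit on the inner tails of cytokine receptors and phosphorylate STAT proteins, which then enter the nucleus and switch on target genes. STAT dimers bind a palindrome called GAS, whereas STAT2 joins IRF9 after type I interferon in a complex that binds another element, the ISRE. SOCS1 and SOCS3 are induced by STATs and block the kinases in turn, and interferon regulatory factors bind ISRE-like elements, either amplifying the response (IRF1, IRF7) or directing the development of macrophages, dendritic cells and B cells (IRF8). In the lung, macrophages, T cells and epithelium all carry this pathway.

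The promoters of 5 members held a GAS or ISRE letter pattern, and they are shown because the members fall into those with a GAS match, those with an ISRE match and those with neither. Each sequence is the RefSeq window of mouse build GRCm38.p6, 250 bases before to 50 after an annotated start, 5′ to 3′ on the gene's strand, with the matching letters in capitals. GAS was searched as TTCNNNGAA, which reads the same on both strands, and ISRE as GAAANNGAAA on either strand. The windows lie at chr10:128270248-128270547, plus strand (Stat2), chr16:10785487-10785786, minus strand (Socs1), chr11:117969317-117969616, minus strand (Socs3), chr11:53769764-53770063, plus strand (Irf1) and chr8:120736108-120736407, plus strand (Irf8).
Stat2: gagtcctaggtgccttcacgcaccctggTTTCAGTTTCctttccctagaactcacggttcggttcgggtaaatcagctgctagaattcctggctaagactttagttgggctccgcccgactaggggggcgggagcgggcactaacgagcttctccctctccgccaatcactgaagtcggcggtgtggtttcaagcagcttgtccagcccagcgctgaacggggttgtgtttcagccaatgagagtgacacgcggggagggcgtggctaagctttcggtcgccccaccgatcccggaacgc
Socs1: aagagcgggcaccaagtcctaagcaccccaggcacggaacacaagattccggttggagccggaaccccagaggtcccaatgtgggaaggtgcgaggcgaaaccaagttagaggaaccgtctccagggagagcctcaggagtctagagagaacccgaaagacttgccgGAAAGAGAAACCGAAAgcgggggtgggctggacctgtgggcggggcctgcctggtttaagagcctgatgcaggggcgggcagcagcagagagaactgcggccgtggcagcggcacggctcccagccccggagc
Socs3: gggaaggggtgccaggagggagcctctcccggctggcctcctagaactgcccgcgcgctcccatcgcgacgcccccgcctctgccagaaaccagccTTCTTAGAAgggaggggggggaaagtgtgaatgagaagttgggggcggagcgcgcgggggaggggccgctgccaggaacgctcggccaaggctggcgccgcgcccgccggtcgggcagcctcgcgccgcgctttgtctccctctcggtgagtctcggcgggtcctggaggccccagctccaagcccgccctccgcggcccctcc
Irf1: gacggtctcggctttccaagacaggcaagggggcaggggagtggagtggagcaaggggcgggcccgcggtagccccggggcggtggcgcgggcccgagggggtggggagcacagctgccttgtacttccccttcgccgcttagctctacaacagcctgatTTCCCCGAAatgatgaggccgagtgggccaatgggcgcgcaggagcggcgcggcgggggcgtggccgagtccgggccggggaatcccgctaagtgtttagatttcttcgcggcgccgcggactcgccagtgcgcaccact
Irf8: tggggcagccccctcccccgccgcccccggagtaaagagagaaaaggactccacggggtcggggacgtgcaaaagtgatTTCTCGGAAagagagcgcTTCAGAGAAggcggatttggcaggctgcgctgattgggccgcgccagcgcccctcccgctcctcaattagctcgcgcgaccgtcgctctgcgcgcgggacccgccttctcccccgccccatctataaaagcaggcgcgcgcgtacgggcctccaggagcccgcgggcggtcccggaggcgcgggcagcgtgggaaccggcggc

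The Irf1 window held 1 GAS match, TTCCCCGAA, at -90 to -82 from the start, and the Socs3 window held TTCTTAGAA at -154 to -146. The Irf8 window held 2 GAS matches, at -171 to -163 and at -153 to -145. The Socs1 window held 2 overlapping ISRE matches between -83 and -68, and the Stat2 window 1 ISRE match, read on the opposite strand, at -222 to -213. Over all 32851 promoter windows of the table, 8.30% held a GAS match and 3.44% an ISRE match. Jak2, Stat3, Irf7 and Irf9 had neither in any window. Irf1, Irf8 and Irf9 have 2 annotated windows each, and the second window of Irf1 and of Irf8 held no match. A match describes letters and is not evidence of binding, and no binding was measured here.

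Signals are given as normalized log2 signal, the log2 of the scanner's processed intensity minus the 75th percentile of its array, so a value of 0 is the 75th percentile of that array. A change is a difference of group means on this scale from limma, with its standard error (SE), and passed the test at a Benjamini-Hochberg adjusted p under 0.05 over all 21856 items. Brightness depends on the probe, so levels were compared only within a gene. The PBS arrays stood apart technically: the share of spots well above background was 70.2% to 73.1% in PBS and 55.6% to 67.5% elsewhere, their 75th percentile of signal was 699 to 984 against 183 to 509, and the spike-in control RNA was dimmer (median log2 intensity 9.05 to 10.1 against 10.5 to 11.4). PBS 2 was scanned on an earlier day than all other arrays. On the PBS 1 and PBS 2 arrays Xist was not well above background and Ddx3y, Eif2s3y, Kdm5d and Uty, genes of the Y chromosome, were, whereas PBS 3 and the 9 treated arrays showed the reverse. PBS 1 and PBS 2 therefore go against their label of female mice, and the comparisons of the 9 genes with PBS are also given against PBS 3 alone, a fit in which that lone array is assumed to vary like the other groups. All comparisons with PBS share these 3 control arrays. The part of array quality in the PBS comparisons, and in the interaction of LPS and NNK, which also uses the PBS arrays, was not tested.

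Jak2, the kinase of the receptors for interferon gamma and many other cytokines, was lower in every treated group than in PBS. Its normalized log2 signal was 1.15, 1.11 and 1.33 in PBS 1, 2 and 3, then 0.05, 0.69 and 0.19 in LPS 1, 5 and 6, -0.20, -0.01 and 0.11 in NNK 2, 3 and 5, and 0.46, 0.40 and 0.32 in LPS/NNK 2, 3 and 6. Every PBS array lay above every treated array, and the LPS and LPS/NNK arrays overlapped. The Jak2 change from PBS was -0.88 (SE 0.23, adjusted p = 0.00547) in LPS, -1.23 (SE 0.23, adjusted p = 0.000988) in NNK and -0.80 (SE 0.23, adjusted p = 0.0093) in LPS/NNK. In order of mean signal (± SD, n = 3) the groups ran from PBS (1.19 ± 0.12) through LPS/NNK (0.39 ± 0.07) and LPS (0.31 ± 0.34) to NNK (-0.03 ± 0.15), and no pair among the last 3 groups passed the test. The interaction of the agents, the LPS/NNK value beyond the sum of the 2 single changes, was 1.31 (SE 0.32, adjusted p = 0.00831). The fall from PBS with both agents was thus smaller than the sum of the single falls. This term uses the PBS arrays, and the part of their technical difference in it was not tested. Among all items 38.7% had an interaction past the threshold. The Jak2 change against PBS 3 alone was -1.02 (adjusted p = 0.0564) in LPS, -1.36 (adjusted p = 0.0265) in NNK and -0.93 (adjusted p = 0.0682) in LPS/NNK, and the interaction was 1.44 (adjusted p = 0.0533).

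Stat3, which carries the signal of the interleukin 6 family, was higher in each treated group and highest with both agents. Its values were 2.43, 2.14 and 2.09 on the PBS arrays, 3.27, 3.36 and 3.95 with LPS, 3.61, 3.50 and 3.46 with NNK, and 4.28, 5.05 and 4.89 with LPS/NNK. The PBS arrays lay below all others and the LPS/NNK arrays above all others, whereas LPS and NNK overlapped. Stat3 rose by 1.31 (SE 0.27, adjusted p = 0.00126) in LPS, by 1.30 (SE 0.27, adjusted p = 0.00167) in NNK and by 2.52 (SE 0.27, adjusted p = 1.31e-05) in LPS/NNK, which is a 5.74-fold difference. It was also higher in LPS/NNK than in NNK (1.22, SE 0.27, adjusted p = 0.00867) and than in LPS (1.21, SE 0.27, adjusted p = 0.0274). The LPS and NNK means (3.53 ± 0.37 and 3.52 ± 0.08, SD, n = 3) differed by 0.00 with a 95% interval of -0.57 to 0.57. The Stat3 interaction was -0.09 (95% interval -0.90 to 0.72), so the combined change did not differ detectably from the sum of the single changes.

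Each Stat3 array value is the mean of 10 spots of 1 probe, whose SD within an array was 0.02 to 0.08, so spot noise was small beside the spread between arrays. With PBS 3 alone as the control, Stat3 changed by 1.43 (adjusted p = 0.0268) in LPS, 1.43 (adjusted p = 0.034) in NNK and 2.65 (adjusted p = 0.00155) in LPS/NNK. The call against LPS was lost when LPS 1, LPS 5, LPS/NNK 3 or LPS/NNK 6 was left out, with values from 1.06 to 1.14 and adjusted p from 0.0751 to 0.124, and also with no filter on dim probes or with the treated arrays fitted alone.

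Stat2, the STAT of type I interferon receptors, was 1.26, 0.74 and 0.92 on the PBS arrays, 1.35, 1.88 and 2.01 with LPS, 1.52, 1.18 and 1.14 with NNK, and 2.68, 1.90 and 1.60 with LPS/NNK. All LPS and LPS/NNK arrays lay above the PBS arrays, NNK overlapped PBS, and LPS/NNK 2 was the highest array by a wide margin. Stat2 rose by 1.09 (SE 0.30, adjusted p = 0.00776) in LPS/NNK against PBS and by 0.77 (SE 0.30, adjusted p = 0.0413) in LPS against PBS. Its change in NNK was 0.30 (SE 0.30, adjusted p = 0.406) and its difference between LPS/NNK and NNK was 0.78 (SE 0.30, adjusted p = 0.0877). The order of means was LPS/NNK (2.06 ± 0.55), LPS (1.75 ± 0.35), NNK (1.28 ± 0.21) and PBS (0.97 ± 0.26, SD, n = 3), with no neighbours in it that passed the test. Neither Stat2 call held against PBS 3 alone (0.82, adjusted p = 0.185 for LPS and 1.14, adjusted p = 0.0752 for LPS/NNK), where the NNK value was 0.36 (adjusted p = 0.585), and the LPS call was lost in 11 of 19 alternative fits.

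Socs1, which binds and blocks the kinases downstream of interferons, had the largest change of the 9 genes in LPS and LPS/NNK against PBS and in LPS/NNK against NNK. In NNK it was the largest against all 3 PBS arrays, but below those of Stat3 and Jak2 against PBS 3 alone. The Socs1 signal was 0.94, 0.20 and 0.97 on the PBS arrays, 2.68, 4.33 and 3.93 with LPS, 1.99, 1.94 and 2.76 with NNK, and 4.70, 5.37 and 4.83 with LPS/NNK. PBS was lowest and LPS/NNK highest without overlap, while LPS 1 lay below NNK 5. Socs1 rose by 4.26 (SE 0.40, adjusted p = 6.46e-06, 19.2-fold) in LPS/NNK, by 2.94 (SE 0.40, adjusted p = 0.000101, 7.69-fold) in LPS and by 1.53 (SE 0.40, adjusted p = 0.00712, 2.89-fold) in NNK, each against PBS. It rose by 2.73 (SE 0.40, adjusted p = 0.000987) in LPS/NNK against NNK. The difference between LPS/NNK and LPS, 1.32 (SE 0.40, adjusted p = 0.0752), and that between LPS and NNK, 1.41 (SE 0.40, adjusted p = 0.0556), did not pass the test. Against PBS 3 alone the Socs1 change was 2.68 (adjusted p = 0.00996) in LPS, 3.99 (adjusted p = 0.00122) in LPS/NNK and 1.26 (adjusted p = 0.139) in NNK.

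Socs3, the inhibitor that acts on receptors of the interleukin 6 family, was 4.23, 3.16 and 3.1 on the PBS arrays, 3.99, 4.05 and 4.03 with LPS, 3.98, 3.87 and 4.47 with NNK, and 4.48, 4.64 and 4.78 with LPS/NNK. PBS 1 lay above the LPS arrays and within the NNK range, and PBS 2 and 3 lay below all others. Socs3 rose by 1.13 (SE 0.30, adjusted p = 0.0058) in LPS/NNK against PBS and was not called elsewhere. Its changes were 0.53 (SE 0.30, adjusted p = 0.147) in LPS and 0.61 (SE 0.30, adjusted p = 0.101) in NNK. Without PBS 1 these were 0.89 (adjusted p = 0.0152) and 0.97 (adjusted p = 0.012) and both passed. The Socs3 change against PBS 3 alone was 0.92 (adjusted p = 0.0735) in LPS, 1.0 (adjusted p = 0.066) in NNK and 1.53 (adjusted p = 0.00927) in LPS/NNK. The LPS/NNK rise of Socs3 fell to 0.30 to 0.38 (adjusted p from 0.221 to 0.363) under quantile, cyclic loess and normexp processing.

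**Figure D1:**
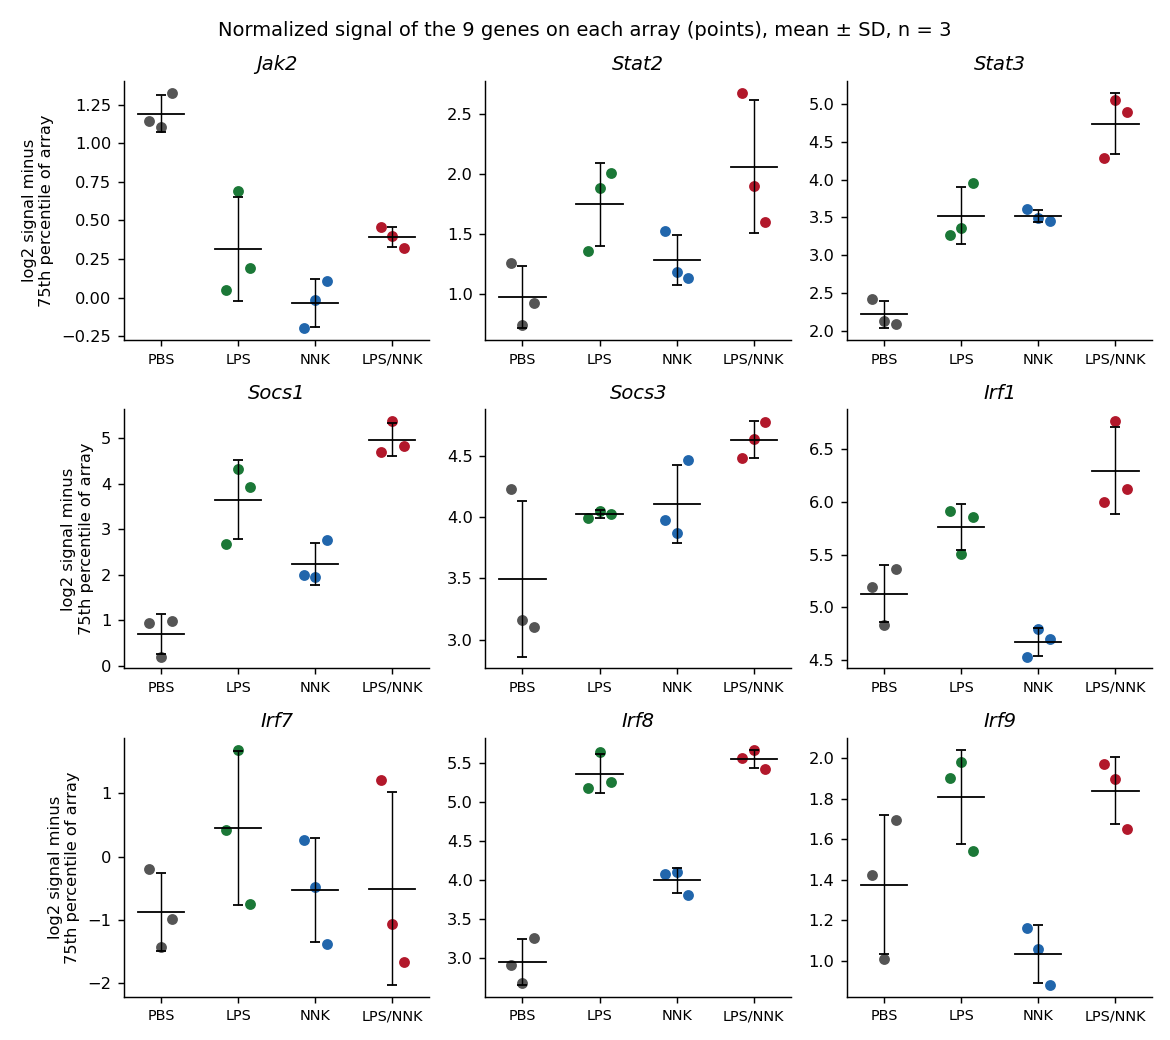
Normalized log2 signal (0 is the 75th percentile of an array, vertical axes, 1 scale per gene) of the 9 genes on each of the 12 arrays, by group. Points are arrays, lines are group means and bars are ± SD (n = 3). Socs1 and Stat3 rise from PBS to LPS/NNK without overlap between those groups, Jak2 is highest on the PBS arrays, and the Irf7 arrays of LPS/NNK run from -1.67 to 1.21.

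Irf8, a factor of macrophage, dendritic and B cell development, rose in every treated group. The Irf8 signal was 2.91, 2.68 and 3.26 on the PBS arrays, 5.18, 5.64 and 5.25 with LPS, 4.08, 4.10 and 3.81 with NNK, and 5.56, 5.66 and 5.42 with LPS/NNK. PBS, NNK and the pair of LPS-treated groups formed 3 levels without overlap, and LPS overlapped LPS/NNK. Irf8 rose by 2.40 (SE 0.23, adjusted p = 1.14e-05) in LPS, by 1.04 (SE 0.23, adjusted p = 0.00299) in NNK and by 2.59 (SE 0.23, adjusted p = 5.13e-06) in LPS/NNK, each against PBS. It was higher in LPS/NNK than in NNK by 1.55 (SE 0.23, adjusted p = 0.00114) and higher in LPS than in NNK by 1.36 (SE 0.23, adjusted p = 0.00372). LPS/NNK differed from LPS by 0.19, with a 95% interval of -0.32 to 0.70, and the interaction was -0.85 (SE 0.33, adjusted p = 0.0564). The Irf8 change against PBS 3 alone was 2.09 (adjusted p = 0.00324) in LPS, 2.28 (adjusted p = 0.00145) in LPS/NNK and 0.73 (adjusted p = 0.148) in NNK.

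Irf1, a factor that interferon gamma induces and that drives antigen presentation genes, was lowest with NNK alone and highest with both agents. The Irf1 signal was 5.19, 4.83 and 5.37 on the PBS arrays, 5.91, 5.51 and 5.85 with LPS, 4.54, 4.80 and 4.70 with NNK, and 5.99, 6.76 and 6.12 with LPS/NNK. None of the 4 groups overlapped another on this probe. The order of means was LPS/NNK (6.29 ± 0.41), LPS (5.76 ± 0.22), PBS (5.13 ± 0.27) and NNK (4.68 ± 0.13, SD, n = 3), in which no neighbours differed at the threshold. Irf1 rose by 1.61 (SE 0.26, adjusted p = 0.00161) in LPS/NNK against NNK and was higher in LPS than in NNK by 1.08 (SE 0.26, adjusted p = 0.0249), a call lost in 8 of 19 alternative fits. It rose by 1.16 (SE 0.26, adjusted p = 0.00205) in LPS/NNK against PBS. The changes in LPS (0.63, SE 0.26, adjusted p = 0.0532) and in NNK (-0.45, SE 0.26, adjusted p = 0.154) did not pass. The Irf1 interaction was 0.99 (SE 0.37, adjusted p = 0.0465) and lost its call in 15 of 25 alternative fits.

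The Irf1 difference from PBS depended on how the arrays were scaled, with 0.12 under normexp, 0.10 under quantile and 0.03 under cyclic loess processing in LPS/NNK, and a fall in NNK (-1.24, -1.21 and -1.40) that passed the test under all 3. Against PBS 3 alone the Irf1 change was 0.39 (adjusted p = 0.462) in LPS, -0.69 (adjusted p = 0.212) in NNK and 0.92 (adjusted p = 0.0891) in LPS/NNK.

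Irf9, the DNA-binding partner of STAT2, moved over a narrow range. The Irf9 signal was 1.42, 1.01 and 1.70 on the PBS arrays, 1.90, 1.98 and 1.54 with LPS, 1.16, 1.06 and 0.88 with NNK, and 1.97, 1.90 and 1.65 with LPS/NNK. NNK lay below LPS and LPS/NNK without overlap, and PBS overlapped all 3. Irf9 rose by 0.81 (SE 0.24, adjusted p = 0.0357) in LPS/NNK against NNK, its sole call, which was lost in 12 of 20 alternative fits and turned negative with the other Irf9 probe. Its changes from PBS were 0.43 (SE 0.24, adjusted p = 0.141) in LPS, -0.34 (SE 0.24, adjusted p = 0.246) in NNK and 0.47 (SE 0.24, adjusted p = 0.118) in LPS/NNK. With PBS 3 alone they were 0.11, -0.66 and 0.15 (adjusted p = 0.824, 0.183 and 0.777).

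Irf7, the amplifier of type I interferon, varied widely between mice of the same group. The Irf7 signal was -0.20, -1.42 and -0.99 on the PBS arrays, 0.42, 1.69 and -0.74 with LPS, 0.26, -0.47 and -1.38 with NNK, and 1.21, -1.06 and -1.67 with LPS/NNK. Every pair of groups overlapped, with LPS 5 and LPS/NNK 2 the highest arrays. The SE of an Irf7 change was 0.72, and none passed the test: LPS against PBS gave 1.32 with a 95% interval of -0.22 to 2.87, and LPS/NNK against NNK gave 0.03 with an interval of -1.52 to 1.57. With 3 arrays a group these intervals still hold changes of more than 1 log2 unit. With PBS 3 as the only control the Irf7 change was 1.44 (adjusted p = 0.311) in LPS, 0.46 (adjusted p = 0.773) in NNK and 0.48 (adjusted p = 0.753) in LPS/NNK.

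In LPS/NNK against NNK, Socs1, Irf1, Irf8, Stat3 and Irf9 rose and no member fell. These 5 of 9 compare with 17.3% of all items called, 7.92% higher and 9.35% lower. The count rests on the probe: 2 members were called with the mean over probes and 2 with the dimmest probe. In those fits 3820 and 3713 of all items were called, beside 3773. The members were also chosen with earlier results of these data known. For 8 members, all but Irf7, the ranges of both groups were separate, against 35.9% of all items. The median change of the 9 genes was 0.81, beside -0.06 over all items. In LPS/NNK against LPS, only Stat3 was called among the 9, against 4.11% of all items (2.85% higher and 1.26% lower), and 4 members (Irf1, Socs1, Socs3 and Stat3) did not overlap, against 20.9%. The median there was 0.31, beside 0.11 over all items.

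Against PBS more than 1 in 2 items were called, so counts of members say little. In LPS 4 members rose (Irf8, Socs1, Stat2 and Stat3) and Jak2 fell, beside 56% of all items called (26.1% higher and 29.9% lower), and 6 did not overlap, beside 62.6%. In NNK 3 rose (Irf8, Socs1 and Stat3) and Jak2 fell, beside 51.5% (27.8% higher and 23.7% lower), and 5 did not overlap, beside 67.6%. In LPS/NNK 6 rose (Irf1, Irf8, Socs1, Socs3, Stat2 and Stat3) and Jak2 fell, beside 55.1% (27.9% higher and 27.1% lower), and 7 did not overlap, beside 62%. The shares of members called were thus near the background in LPS and in NNK. The median change of the 9 genes was 0.77 in LPS, 0.34 in NNK and 1.13 in LPS/NNK, beside -0.06, 0.04 and -0.04 over all items. The changes against PBS 3 alone, a control group of 1 array, are given above with each gene. Irf1 and Irf8 were higher in LPS than in NNK, 2 of 9 beside 6.21% of all items called (2.73% higher and 3.48% lower), and 3 did not overlap, beside 24.4%. The interaction was called for Irf1 and Jak2, beside 38.7% of all items (20.1% higher and 18.6% lower), and for neither against PBS 3 alone.

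**Figure D2:**
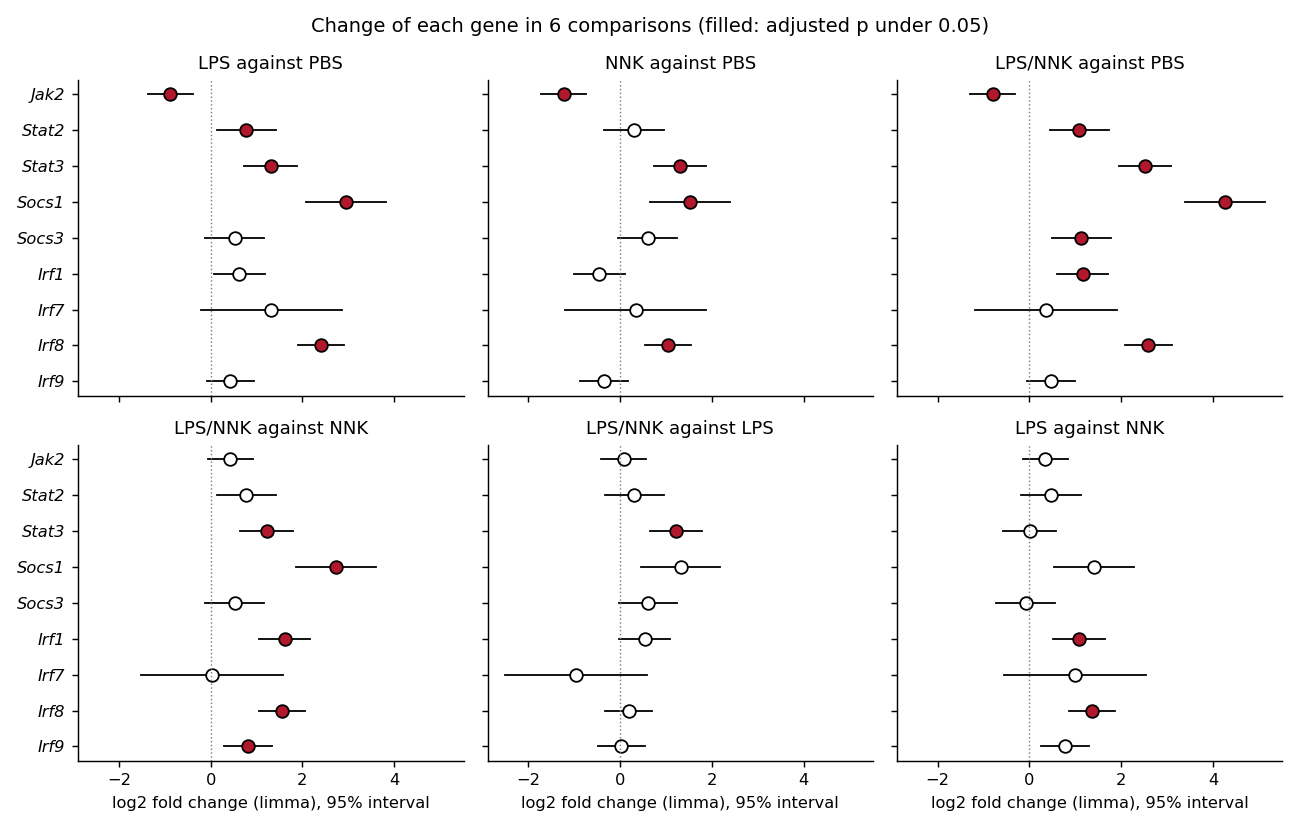
Change of each gene (log2 fold change from limma, horizontal axis) in 6 comparisons of groups, with 95% intervals; filled points passed the adjusted p threshold of 0.05 over all 21856 items (n = 3 arrays per group). Socs1, Stat3 and Irf8 lie to the right of 0 against PBS in all 3 treated groups and Jak2 to the left, and Irf7 has the widest intervals.

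Only 4 slides held arrays of different groups, and these give differences within a slide, each from 1 pair of arrays. On slide 6, LPS/NNK 2 exceeded NNK 3 by 2.76 for Socs1, 1.46 for Irf8, 1.20 for Irf1, 0.92 for Irf9 and 0.78 for Stat3. On slide 7, LPS/NNK 3 exceeded NNK 5 by 2.61 for Socs1, 1.85 for Irf8, 2.06 for Irf1, 1.02 for Irf9 and 1.59 for Stat3. For the 5 genes called between these groups every LPS/NNK array lay above every NNK array. The sign on both slides was thus fixed beforehand and adds nothing to the calls. Slide 8 held PBS 1 and LPS/NNK 6, which differed by 3.89 for Socs1, 2.51 for Irf8, 2.46 for Stat3 and -0.82 for Jak2. The other members there gave 0.35 (Stat2), 0.55 (Socs3), 0.93 (Irf1), 0.23 (Irf9) and -1.47 (Irf7). Slide 5 held PBS 3 and NNK 2, which differed by 1.52 for Stat3, 1.02 for Socs1, 0.81 for Irf8 and -1.53 for Jak2. The other members gave 0.60 (Stat2), 0.87 (Socs3), -0.83 (Irf1), -0.53 (Irf9) and 1.25 (Irf7). For Socs1, Irf8, Stat3 and Jak2 the PBS arrays overlapped neither NNK nor LPS/NNK, so these signs too were fixed beforehand. With the slide as a fixed effect the calls in LPS/NNK against NNK held for Socs1 (2.72), Irf1 (1.66), Irf8 (1.66) and Stat3 (1.14) and that of Irf9 was lost (0.93, adjusted p = 0.0563). The LPS arrays shared a slide with no other group, so for them slide and group cannot be told apart. The slot on the slide also followed the group.

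Irf1, Irf8, Irf9 and Jak2 have a second, dimmer probe for the same transcript, and the probes disagreed most for Irf1. The brighter Irf1 probe, used above, differed from PBS by 0.63, -0.45 and 1.16 in LPS, NNK and LPS/NNK, and the dimmer by -0.22, -1.39 and -1.34. Both Irf1 probes were thus lower in NNK than in PBS, but in LPS/NNK they went opposite ways, and LPS/NNK against NNK was 0.05 on the dimmer probe (adjusted p = 0.967). For Irf8 the brighter probe gave 2.40, 1.04 and 2.59 and the dimmer 1.90, 0.52 and 0.79, so the LPS rise was seen by both and the LPS/NNK value shrank, to 0.27 against NNK (adjusted p = 0.714).

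The dimmer Irf9 probe gave -0.29, -0.57 and -0.79 against PBS, and -0.22 in LPS/NNK against NNK (adjusted p = 0.767), opposite in sign to the brighter. For Jak2 the dimmer probe, well above background on 9 of 12 arrays, gave -1.78, -1.32 and -0.98, the same direction as the brighter in every group. A dimmer probe gave a lower change for most genes of the array in 5 of 6 comparisons: over 3403 genes with at least 2 probes detected on all arrays, it was the lower of the pair for 67.7% of genes in LPS/NNK against PBS and for 59.6% in LPS/NNK against NNK, but for 44.8% in LPS against NNK. The probes of a pair had opposite signs for 29.2% of genes in LPS/NNK against PBS and for 32.9% in LPS/NNK against NNK. The 2 probes of a gene correlated across genes at r = 0.621 and r = 0.565 in these comparisons, with both probes on the same arrays. The calls of Irf1, Irf8 and Irf9 in LPS/NNK against NNK hold only for the brighter probe. Socs1, Socs3, Stat2, Stat3 and Irf7 have a single probe each, so no such check exists for them.

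**Figure D3:**
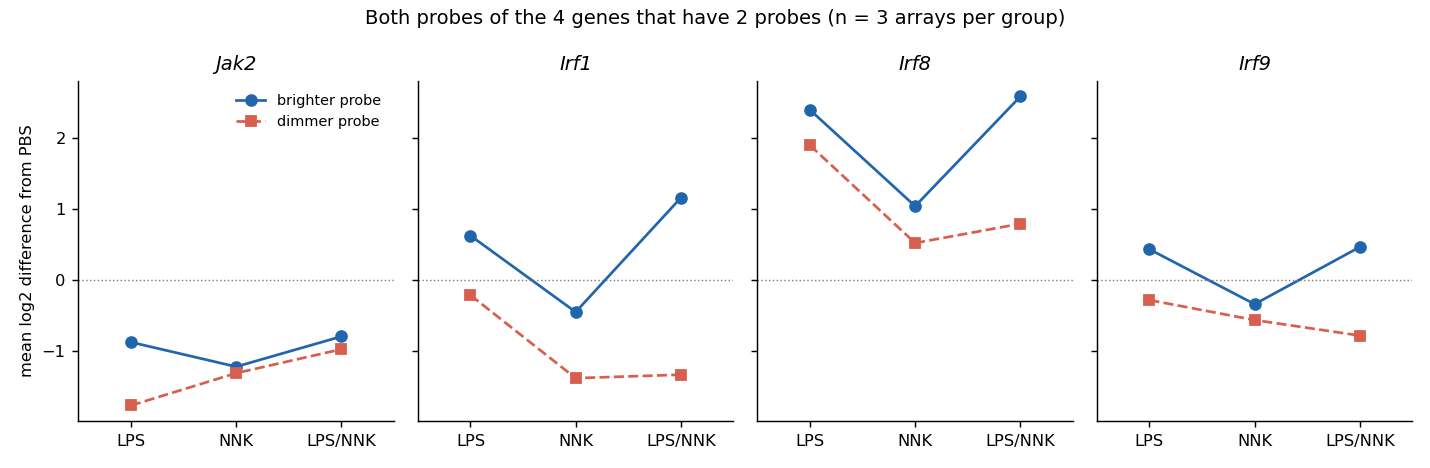
Mean log2 difference from PBS (vertical axis) in LPS, NNK and LPS/NNK for both probes of Jak2, Irf1, Irf8 and Irf9 (n = 3 arrays per group; no error shown). The brighter probes (circles) and dimmer probes (squares) run alike for Jak2, and for Irf1 they part in LPS/NNK, at 1.16 and -1.34.

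The scale of the arrays mattered more for comparisons with PBS than for those among treated groups. Scaling by the median of each array moved the median of all items by 0.40 in LPS, 0.21 in NNK and 0.30 in LPS/NNK against PBS, and scaling by the 75th percentile of detected probes by -0.28, -0.29 and -0.36. These settings move every gene of an array by the same amount. The Jak2 falls in LPS (-0.48, adjusted p = 0.0769) and LPS/NNK (-0.50, adjusted p = 0.0684) lost their calls under the median. The rises of Socs1 and Stat3 against PBS kept their direction and calls under every scaling tried, from 3.61 to 4.56 for Socs1 and from 1.81 to 2.82 for Stat3 in LPS/NNK. Irf8 in NNK against PBS was 0.55 (adjusted p = 0.0759) under quantile and 0.27 (adjusted p = 0.37) under cyclic loess normalization. In LPS/NNK against NNK the Socs1, Irf1, Irf8 and Stat3 calls held under all 6 scalings.

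**Figure D4:**
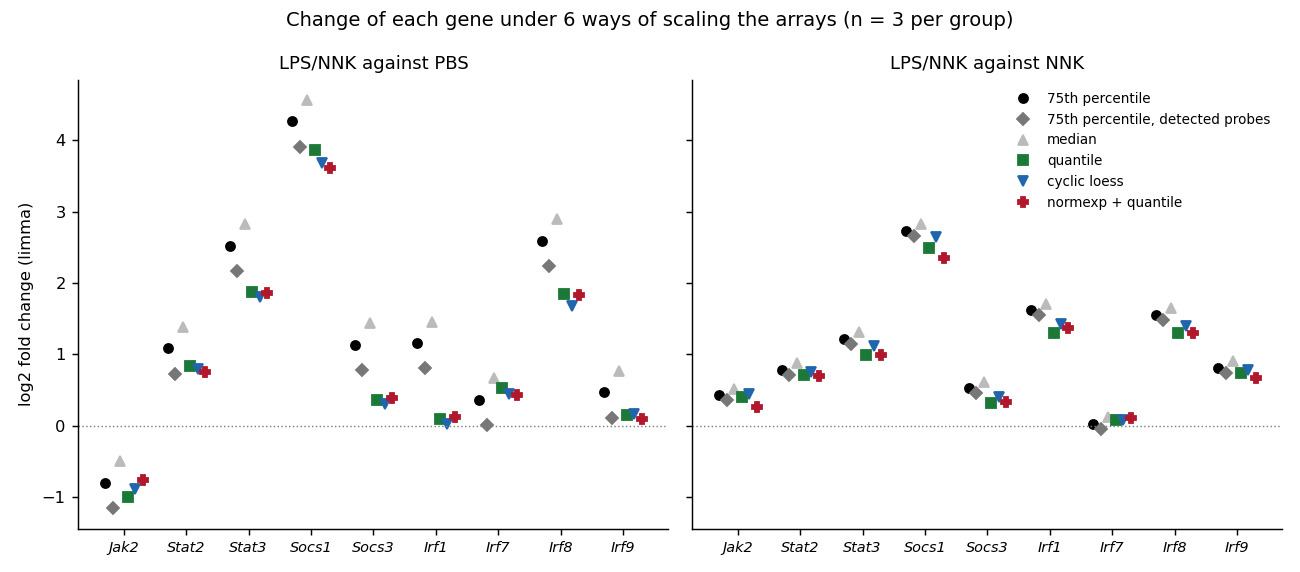
Log2 fold change from limma (vertical axis) of each gene under 6 ways of scaling the arrays, for LPS/NNK against PBS (left) and against NNK (right), n = 3 arrays per group. Against PBS, Irf1 ranges from 0.03 to 1.46 and Socs3 from 0.30 to 1.43 with the scaling; against NNK the 6 symbols of a gene lie close together.

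Other genes of the pathway were counted from lists written from textbook knowledge, to be read beside the 7.92% of all items called higher and 9.35% called lower in LPS/NNK against NNK. Among ligands, 10 of 17 were measured, and in LPS/NNK against NNK 2 rose and none fell: Ifng, the cytokine whose receptor signals through JAK2, by 5.22 (SE 0.43, adjusted p = 3.78e-05) and Il7, a growth factor of T cells, by 1.47 (SE 0.41, adjusted p = 0.0264). Ifng also rose by 2.52 (SE 0.43, adjusted p = 0.000403) in LPS against PBS, while its NNK value was -0.91 (SE 0.43, adjusted p = 0.0896). With PBS 3 as the only control these were 1.92 (adjusted p = 0.0281) and -1.51 (adjusted p = 0.0742). Of 19 receptors 2 rose and 1 fell in LPS/NNK against NNK, no larger a share than among all items (17.3%): Il12rb1 (3.16, SE 0.33) and Il2rb (2.51, SE 0.30), receptor chains of T and natural killer cells, rose, and Il6st, the shared chain of the interleukin 6 family that feeds STAT3, fell by 1.17 (SE 0.32, adjusted p = 0.0269) with overlapping arrays. Of 5 other interferon regulatory factors Irf2 alone rose there (1.08, SE 0.34, adjusted p = 0.0462), and against PBS in LPS 4 rose and 1 fell, led by Irf5 (2.71, SE 0.33), a factor of macrophages. These counts stand beside 26.1% of all items called higher and 29.9% called lower in LPS. The median change of these 5 in LPS was 1.04 against all PBS arrays. Against PBS 3 alone it was 0.97, with Irf5 at 2.60. Of 15 other inhibitors 1 rose and 2 fell in LPS/NNK against NNK, also near the share of all items: the phosphatase Ptpn2 (0.99, SE 0.30), and Pias3 (-2.00, SE 0.47) and Pias4 (-1.33, SE 0.39), inhibitors that bind STATs.

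Genes known as targets of the members moved unequally. Of 20 interferon gamma targets, 16 rose and none fell in LPS/NNK against NNK (median 2.30, beside -0.06 over all items), among them Gbp5 (4.14, SE 0.41), Cd274 (2.33, SE 0.31), Cxcl9 (6.99, SE 0.97) and Iigp1 (4.00, SE 0.56). The same list held 1 gene that rose and 6 that fell in NNK against PBS (median -0.86), and 10 that rose and 1 that fell in LPS against PBS (median 1.08), where 27.8% and 26.1% of all items rose and 23.7% and 29.9% fell in NNK and in LPS. Against PBS 3 alone the median change of this list was -0.94 in NNK and 0.52 in LPS. Of 15 type I interferon targets measured, 4 rose and none fell in LPS/NNK against NNK (median 1.05): Bst2 (2.11, SE 0.35), Oasl2 (1.71, SE 0.39), Ddx58 (1.19, SE 0.23) and Ifit3 (1.10, SE 0.27). Of 18 STAT3 targets only Junb rose there (0.90, SE 0.27, adjusted p = 0.0364) and none fell, with a median of 0.39. That count is near the 7.92% of all items called higher, and the activity of STAT3 protein was not measured. Against PBS 8 of these 18 rose in LPS, 7 in NNK and 8 in LPS/NNK, and none fell, beside 26.1%, 27.8% and 27.9% of all items called higher. Lrg1, an acute phase glycoprotein, rose by 3.45 (SE 0.42) in LPS. When only PBS 3 was the control, 4, 3 and 6 STAT3 targets rose, beside 13%, 12.6% and 17.5% of all items, and Lrg1 rose by 3.61 (adjusted p = 0.00105) in LPS.

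Markers of several cell types differed between the groups. The lung epithelium markers were high on every array, as the label of the tissue states, with a mean normalized log2 signal over 7 markers of 5.35 to 5.51 in PBS, 5.93 to 6.04 in LPS, 6.17 to 6.29 in NNK and 5.65 to 5.76 in LPS/NNK, means that did not overlap. Their summed linear signal did overlap among the treated groups, with 1317 to 1651 in LPS, 1588 to 2111 in NNK and 1169 to 2499 in LPS/NNK. Of these 7, 4 rose in LPS and 4 in NNK against PBS and none fell, beside 26.1% and 27.8% of all items called higher. Their median change was 0.75 in LPS and 0.74 in NNK against all PBS arrays, and 0.45 and 0.74 against PBS 3 alone. In LPS/NNK against NNK 2 of the 7 fell and none rose, beside 9.35% of all items called lower. Monocyte and macrophage markers, 7 of 9 measured, had a summed linear signal of 11.5 to 20.3 in PBS, 28.7 to 33.0 in NNK, 113 to 131 in LPS and 163 to 211 in LPS/NNK. T cell markers, 10 of 10 measured, summed to 10.8 to 13.4 in PBS, 18.7 to 23.8 in NNK, 69.9 to 92.3 in LPS and 101 to 196 in LPS/NNK. Their mean log2 signal overlapped between LPS (0.96 to 1.73) and LPS/NNK (1.57 to 1.91). In LPS/NNK against NNK 6 of 7 monocyte and macrophage markers and 7 of 10 T cell markers rose and none fell, beside 7.92% of all items called higher. B cell markers, 6 of 7 measured, summed to 6.39 to 12.1 in PBS, 7.33 to 11.3 in NNK, 12.4 to 27.6 in LPS and 18.2 to 23.8 in LPS/NNK. Dendritic cell markers, 6 of 7 measured, summed to 6.07 to 9.87 on PBS arrays and to 16.6 to 32.0 on treated ones, natural killer markers (7 of 7) to 4.01 to 9.42 and 5.40 to 19.2, and neutrophil markers (5 of 6) to 28.6 to 90.8 and 18.4 to 59.0. A sum follows its brightest markers, and the markers of a list did not all move alike. Of dendritic markers 3, 2 and 3 were called higher and 1, 1 and 2 lower in LPS, NNK and LPS/NNK against PBS. Of natural killer markers 2, 2 and 2 were called higher and 3, 2 and 3 lower. Among all items 26.1%, 27.8% and 27.9% were called higher and 29.9%, 23.7% and 27.1% lower. Alveolar macrophage markers summed to 130 to 137 in PBS, 93.8 to 110 in NNK, 163 to 276 in LPS and 162 to 561 in LPS/NNK, with 5 of 6 measured. None of these 5 was called higher in LPS against PBS and 1 was called lower (median -0.50). In LPS/NNK against PBS 2 were called higher and none lower (median -0.40). The mean log2 signal of 6 endothelial markers was 2.82 to 3.02 in LPS and 2.67 to 2.87 in LPS/NNK, below all PBS (3.20 to 3.35) and NNK (3.18 to 3.49) arrays. Their summed linear signal overlapped between PBS (104 to 120) and LPS/NNK (76.1 to 119), and was 93.2 to 96.3 in LPS. Of these 6, 1 was called lower in LPS and 1 in LPS/NNK against PBS, and none higher, beside 29.9% and 27.1% of all items called lower. Markers of heart muscle, blood, fat and thymus, tissues that can come along with a lung, had 7 of 9 measured and summed to 46.4 to 73.8 in PBS, 48.7 to 89.7 in LPS, 68.1 to 187 in NNK and 39.5 to 43.0 in LPS/NNK. In LPS/NNK against NNK 3 of these 7 fell and none rose (median -1.37), beside 9.35% of all items called lower. The B cell factor Pax5 was well above background on 1 array and Siglech, a marker of plasmacytoid dendritic cells, on 6. In whole tissue, more cells of a type and more RNA of a gene per cell cannot be told apart, and the part of these markers in the changes of Irf8, Socs1, Stat3 and the other members was not tested.

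Over the 9 treated arrays Irf8 and Irf9 followed each other most closely of all pairs of members (r = 0.95), followed by Irf1 with Irf8 (r = 0.89) and Irf8 with Socs1 (r = 0.86), and Irf7 correlated with the other 8 at -0.47 to 0.49. Over all 12 arrays Irf8 with Irf9 gave r = 0.70. The closest pairs there were Irf8 with Socs1 (r = 0.94) and Stat3 with Socs1 (r = 0.91). These values share their arrays and scaling, and groups differ in several of the genes at once. Jak2 correlated with Socs1 at r = -0.41 over all 12 arrays and at r = 0.83 over the 9 treated arrays, since the PBS arrays are high for one and low for the other. Among 13447 named genes, those most like a member over 12 arrays were Dnase1l3 (r = 0.992), H2-Ab1 (r = 0.991), a class II antigen presentation chain, and Map4k1 (r = 0.988) for Irf8. For Socs1 they were Snx20 (r = 0.987), Tspan33 (r = 0.980) and Tyrobp (r = 0.979), an adaptor of myeloid cells, and for Stat3 Zfp414 (r = 0.986), Ndufa8 (r = 0.986) and Cln8 (r = 0.981). For Irf1 they were Tifa (r = 0.974), H2-M3 (r = 0.968) and Trpm2 (r = 0.966), and for Irf9 Serpina3f (r = 0.973), Epsti1 (r = 0.952) and Igtp (r = 0.951), an interferon-induced GTPase. Jak2 was most like Trim21 (r = 0.960), Evi5 (r = 0.958) and Tfam (r = 0.953), and Socs3 most like Gtse1 (r = 0.949), Mydgf (r = 0.943) and Plaur (r = 0.942). Stat2 and Irf7 had the loosest matches, with Runx3 (r = 0.906), Tnfrsf11a (r = 0.879) and Foxp3 (r = 0.878) for Stat2 and Irak3 (r = 0.887), E2f1 (r = 0.869) and Cenpt (r = 0.863) for Irf7. Over the 9 treated arrays alone these 27 correlations lay between 0.810 and 0.982.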

How the data were processed

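The authors deposited the scanner file of each array, with the intensity of 45018 spots, and a table of log2 values. Per the file headers the intensities come from Agilent Feature Extraction 10.7.3.1 (10.7 per the submitters' processing notes, which also name Partek), which subtracted background and detrended within an array. The other columns used are marks set by the scanner software, per the file headers, for spots well above background, saturated or outlying. No spot was saturated. The deposited log2 values, scaled to the 75th percentile, differed from those computed here by a median of 0.00027 and at most 10.3, with 0.019% of values over 0.1 apart, and changed no call of a member.

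Outlier spots were left out. Averaging repeated spots gave 41174 probes, of which 37 without a usable spot on some array were dropped. Of the probes, 59.2% took a symbol from their RefSeq accession through a table of GRCm38.p6. A probe was kept if all arrays of 1 group or more had it well above background, and the brightest probe stood for its gene. All 12 arrays entered 1 limma 3.58.1 fit (R 4.3.3) with 8 residual and 5.49 prior degrees of freedom and 7 contrasts, 2-sided, with Benjamini-Hochberg adjustment over all items. An exact permutation test of 3 arrays against 3 cannot go below p = 0.1. The number of arrays limits the precision. The method was tested on simulated data.

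Alternatives changed the background correction (normexp with an offset of 50 on the median signals, since mean signals were not used here), scaling, filter, probe choice, blocks for slide or replicate number, and the arrays included. The members and gene lists were chosen with earlier results of these data known, and the list of other kinases and STATs is not reported here. Every member and probe is named, with up to 4 genes of a list by the smallest p in LPS/NNK against NNK and up to 3 in LPS against PBS, and the 3 genes most like each member. The alternatives with the dimmest probe, and with PBS 3 alone for the gene lists, were added after the data were seen.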

Additional observations from a re-analysis of the deposited data

Results flagged for a closer look

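The change with NNK differed with and without LPS for 2 of the 9 genes, by the interaction term of the limma fit. For Jak2 the interaction was 1.31 (SE 0.32, adjusted p = 0.00831), beside changes from PBS of -0.88 in LPS, -1.23 in NNK and -0.80 in LPS/NNK. It kept its call in 24 of 25 alternative fits and lost it against PBS 3 alone (1.44, adjusted p = 0.0533). For Irf1 the interaction was 0.989 (SE 0.37, adjusted p = 0.0465), beside changes of 0.63, -0.45 and 1.16, and it kept its call in 10 of 25. Since 38.7% of all items had an interaction past the threshold, 2 of 9 is below that share. The PBS arrays, which stood apart technically, enter every interaction, and their part in it was not tested.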

How the results depend on the processing

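The deposited table changed none of the 63 member results (9 genes in 7 comparisons), and the slide as a random block (consensus correlation 0.241) changed 2. The Irf1 change in LPS/NNK against PBS turned to -0.0896 with the mean over probes and to -1.34 with the dimmest probe, and Irf9 in LPS/NNK against NNK to -0.22 with the dimmest probe. The counts below run over members first, then all items; the cause of a moved count was not tested. For LPS against NNK members called were 4 with median scaling, 1 with no filter, 1 with the mean over probes and 0 with the dimmest probe (2 higher at an unadjusted p under 0.05 in that limma fit), and items were 762 with normexp and 804 with the filter on all 12 arrays, beside 1358. For LPS/NNK against LPS members were 0 with no filter and 0 with treated arrays only (2 and 3 higher at an unadjusted p under 0.05 in those limma fits), and items were 569 with normexp, 338 with no filter and 463 with treated arrays only, beside 898. For LPS/NNK against NNK members were 2 with the mean over probes and 2 with the dimmest probe. With the slide as a fixed effect, members in LPS/NNK against PBS were 4 and items in NNK against PBS 6641. For the interaction members were 1 with no filter and 1 with the dimmest probe. With no filter, items were 19481, 17565 and 18658 for LPS, NNK and LPS/NNK against PBS and 13197 for the interaction. Against PBS 3 alone members were 3, 2, 4 and 0 and items 5691, 4298, 6616 and 2630 in the same order, with fewer arrays; for the interaction 2 members were higher at an unadjusted p under 0.05 in that limma fit.

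The deviations of same-numbered samples from their group means correlated with r of -0.15 to 0.41 over 9 pairs. Over the 45 pairs of other numbers r was -0.41 to 0.34. So few pairs from groups of 3 cannot settle whether samples of 1 number share more than the number. With the replicate block members were 3 in LPS/NNK against LPS, 1 in LPS against NNK and 1 in the interaction, and items in LPS/NNK against LPS 1890.

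Leaving out each replicate in turn gave 4 to 6 members in LPS against PBS, 4 to 5 in NNK against PBS, 7 to 7 in LPS/NNK against PBS, 4 to 4 in LPS/NNK against NNK, 0 to 2 in LPS/NNK against LPS (2 higher at an unadjusted p under 0.05 in each limma fit with 0), 1 to 3 in LPS against NNK and 1 to 3 in the interaction. The items called ran from 10215 to 11623, 8657 to 10290, 10190 to 11857, 1579 to 5818, 79 to 4831, 595 to 2119 and 6230 to 9979 in that order.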
